A study of Danio rerio with 6 samples.

Results

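The genes described here are 10 components of the Notch pathway of the zebrafish: the feedback genes *nrarpa* and *nrarpb*, the delta ligands *dla*, *dlb*, *dlc* and *dld*, and the receptors *notch1a*, *notch1b*, *notch2* and *notch3*. They were chosen by name, and 10 of the 32057 gene identifiers of the count files were matched to these names. Poly(A) RNA was taken from whole embryos at the shield stage, 6 hours after fertilization, and sequenced on the Ion Proton. The 3 Mcpip1 WT libraries came from AB/TL embryos whose eggs had received mRNA of zebrafish Mcpip1, an RNase, at the 1-cell stage. The 3 Mcpip1 DN libraries came from AB/TL embryos that had received the catalytically inactive form Mcpip1 D112N in the same way. In both constructs Mcpip1 was followed by a P2A peptide and mTurquoise, each library was made from a pool of viable embryos, and no library of uninjected or mTurquoise-only embryos was analysed here. Both groups thus carried extra *zc3h12a* RNA, and the comparison is between active and inactive Mcpip1. The labels do not say whether the 3 pools of a group came from separate clutches or injection days, so the p-values measure only the spread between these pools.

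In the Notch pathway a delta ligand on a cell binds a Notch receptor on its neighbour, the receptor is cut, and its intracellular domain enters the nucleus, where it activates transcription together with the DNA-binding protein Rbpj. Nrarp, a small ankyrin repeat protein, is induced by this signal and, as shown in frog and zebrafish, lowers the level of the Notch intracellular domain. In the zebrafish the pathway is known for the choice between neurons and progenitors, for the segmentation clock of the somites, where *dlc*, *dld* and *notch1a* act, and for cell fates of the embryonic midline.

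The gene name table that was used gives human names to many zebrafish genes, and pairs of paralogs then share a name. NRARP stands for *nrarpa* and *nrarpb* (ENSDARG00000091419 and ENSDARG00000018958), DLL1 for *dla* and *dld* (ENSDARG00000010791 and ENSDARG00000020219), and NOTCH1 for *notch1a* and *notch1b* (ENSDARG00000103554 and ENSDARG00000052094), and the table does not tell which identifier is which. *Dlb* (ENSDARG00000004232), *dlc* (ENSDARG00000002336), *notch2* (ENSDARG00000043130) and *notch3* (ENSDARG00000052139) have 1 identifier each. The entry DLD of the table (ENSDARG00000008785) was set aside, since DLD is the human symbol of dihydrolipoamide dehydrogenase, a mitochondrial enzyme. RefSeq lists its zebrafish gene as *dldh* with the synonym dld. In RefSeq's annotation of another assembly, GRCz12tu, *nrarpb* and *notch1b* lie on the same chromosome with 5 protein-coding genes between them, and *nrarpa* and *notch1a* lie on different chromosomes.

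Total counts on genes were between 22581287 and 24662219 in the Mcpip1 WT libraries and between 17686041 and 23944732 in the Mcpip1 DN libraries. *Zc3h12a* (ENSDARG00000005271), the injected sequence, had 170242, 22302 and 22767 normalized counts in Mcpip1 WT libraries 1, 2 and 3, and 36491, 16111 and 7907 in Mcpip1 DN libraries 1, 2 and 3. Normalized counts are counts rescaled so that all libraries have the same effective size, and they may be compared between libraries for a gene but not between genes, whose lengths differ. Mcpip1 WT library 1 stood apart from all others in this check, and the other WT libraries lay within the range of the DN libraries. The log2 difference of *zc3h12a*, 1.83 (unadjusted p = 0.0391 in edgeR), was 0.16 without WT library 1 (unadjusted p = 0.771), 1.65 without DN library 2 (unadjusted p = 0.117) and 1.41 without DN library 3 (unadjusted p = 0.119). With DESeq2 on all 6 libraries it was 1.79 (unadjusted p = 0.124), so this call also ended there. Of 12 markers of maternal RNA and 7 of the mesoderm margin, all had counts in every library. Since these are whole embryos, fewer cells of a type and less RNA per cell cannot be told apart in any value below.

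Of the 10 genes, 9 passed the filter on low counts. In edgeR's quasi-likelihood test, 2 of these 9 were past the threshold of the study, which asks for a fold change over 1.5 and an unadjusted p under 0.05. Both were lower in Mcpip1 WT, and 0 were higher. Without WT library 1, 1 of them was past it. Among all 16126 genes tested, 1.27% were past this threshold and lower in Mcpip1 WT, and 0.874% were past it and higher. The study picked *nrarpa* for a follow-up from these libraries, so the share of the Notch genes is a description and not independent evidence. After Benjamini-Hochberg adjustment in edgeR 0 genes, or 0% of all genes, had an adjusted p under 0.05, the adjusted p of each Notch gene was 1.00, and 2.21% of all genes had an unadjusted p under 0.05. With DESeq2 on these genes 1 gene had an adjusted p under 0.05, and with edgeR on every gene counted at least once 9 did. Among the 9 Notch genes that passed the filter, those past the threshold of the study were the same with DESeq2. The median log2 fold change, Mcpip1 WT over Mcpip1 DN, was -0.60 over the 9 Notch genes and 0.01 over all genes tested, with 6 of the 9 below 0.

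**Figure D1:**
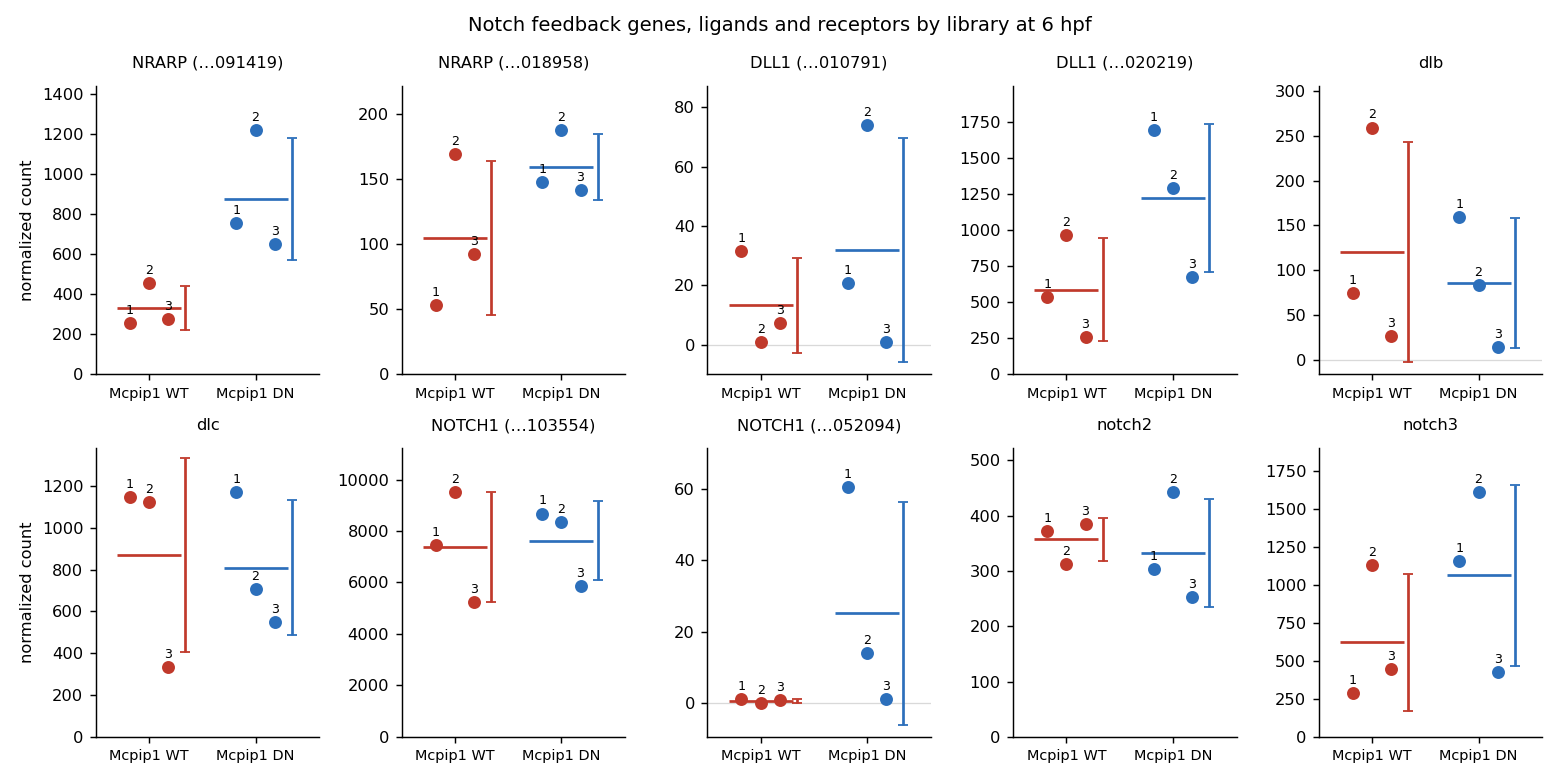
Normalized counts of the 10 Notch genes (vertical axes, linear, 1 panel per identifier) in the 3 Mcpip1 WT libraries (red) and the 3 Mcpip1 DN libraries (blue). Numbers name the replicate, horizontal lines are means and the bars beside them the SD (n = 3). The red and blue points are fully separated for the NRARP identifier ENSDARG00000091419, at 254 to 457 against 649 to 1220.3, and they overlap in every other panel.

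The clearest difference was in a feedback gene. ENSDARG00000091419, an NRARP gene, stood at 254, 457 and 277 normalized counts in Mcpip1 WT libraries 1, 2 and 3, and at 756, 1220.3 and 649 in Mcpip1 DN libraries 1, 2 and 3. The means were 329 ± 111 in Mcpip1 WT and 875 ± 304 in Mcpip1 DN (SD, n = 3 each). All 3 WT libraries lay below all 3 DN libraries, and the highest WT library was below the lowest DN library. Among all genes tested, 4.08% had WT libraries wholly below and 3.97% wholly above the DN libraries. On the log2 scale the fold change was -1.41 (SE 0.37, edgeR's unadjusted p = 0.00312), which ranked 12 among all genes by p. Leaving out each library moved it between -1.72 and -1.10, and the gene was past the threshold in all 6 of these fits.

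ENSDARG00000018958, the other NRARP gene, stood at 52.7, 169 and 92.5 normalized counts in the Mcpip1 WT pools and at 147, 188 and 141 in the Mcpip1 DN pools. WT library 2 lay among the DN libraries, and WT libraries 1 and 3 were below them. The log2 fold change was -0.60 (SE 0.54, unadjusted p = 0.291 in edgeR), with a 95% interval of -1.79 to 0.59, and it was -1.12 without WT library 2 and -0.28 without WT library 1. Whether the paralogs differed was tested with their ratio inside each library. The log2 ratio of ENSDARG00000091419 to ENSDARG00000018958 was 2.23, 1.42 and 1.56 in the Mcpip1 WT pools and 2.34, 2.69 and 2.18 in the Mcpip1 DN pools. The difference of the means was -0.67, with a 2-sided exact permutation p of 0.2, where 3 libraries against 3 cannot go below 0.1. A call in 1 paralog and not in the other is therefore not shown to be a difference between them.

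Among the delta ligands, the DLL1 identifier ENSDARG00000020219 was the other gene past the threshold. Zebrafish *dla* and *dld*, which this name covers, act in lateral inhibition of neurons and, for *dld*, in the segmentation clock. It stood at 535, 963 and 255 normalized counts in the Mcpip1 WT pools and at 1694, 1287 and 675 in the Mcpip1 DN pools. WT libraries 1 and 3 were below all DN libraries, and WT library 2 lay between DN libraries 3 and 2. The means were 585 ± 357 in Mcpip1 WT and 1219 ± 513 in Mcpip1 DN (SD, n = 3 each). Its log2 fold change was -1.06 (SE 0.48, unadjusted p = 0.0483 in edgeR). This call was close to the threshold. It ended without WT library 1 (-0.999, unadjusted p = 0.124 in edgeR) and without WT library 3 (-0.70, unadjusted p = 0.133). It also ended without DN library 1 (-0.75, unadjusted p = 0.159) and without DN library 2 (-1.04, unadjusted p = 0.0949). The call held without WT library 2 (-1.62, unadjusted p = 0.00555 in edgeR) and without DN library 3 (-1.36, unadjusted p = 0.0181). With all 6 libraries it held with a block by replicate number (-1.16, unadjusted p = 0.00773 in edgeR). It also held in edgeR with no filter on low counts (-1.05, unadjusted p = 0.0023). Over all genes these settings also put more genes past the threshold and lower, 288 with the block and 432 with no filter, against 204.

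The remaining ligands had no call and wide spreads between pools. ENSDARG00000010791, the other DLL1 identifier, was counted 31, 1 and 9 times in Mcpip1 WT and 15, 80 and 1 times in Mcpip1 DN. Each group thus held a library with a single count, and the fold change (log2 -1.26, SE 1.52, unadjusted p = 0.426 in edgeR) changed sign to 0.25 without DN library 2. The log2 ratio of ENSDARG00000020219 to ENSDARG00000010791 differed by -0.35 between the groups (2-sided exact permutation p = 0.9). *Dlb*, which marks neuronal precursors later in development, was counted 74, 253 and 32 times in Mcpip1 WT and 116, 90 and 15 times in Mcpip1 DN. In normalized counts its highest library was 9.80-fold above its lowest in Mcpip1 WT and 10.9-fold in Mcpip1 DN. The log2 fold change of *dlb* was 0.49 (SE 0.92, unadjusted p = 0.605 in edgeR) and turned to -0.76 without WT library 2 and to -0.03 without DN library 3.

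*Dlc*, a ligand of the segmentation clock that is already transcribed at the gastrula margin, stood at 1149, 1125 and 334 normalized counts in the Mcpip1 WT pools and at 1169, 705 and 548 in the Mcpip1 DN pools. WT libraries 1 and 2 and DN library 1 were close to each other, and WT library 3 was the lowest of all. For *dlc* the log2 fold change was 0.11 (SE 0.46, unadjusted p = 0.821 in edgeR), with a 95% interval of -0.91 to 1.12. The 7 margin markers summed to 46968, 69024 and 24180 normalized counts in Mcpip1 WT libraries 1, 2 and 3 and to 71122, 32255 and 35727 in Mcpip1 DN libraries 1, 2 and 3. In these sums as in *dlc*, WT library 3 was the lowest and DN library 1 the highest. Most of each sum was *tbx16*, the only one of these markers highest in DN library 1. *Tbxta*, *tbx6* and *aplnrb* were highest in WT library 2, *noto* in WT library 1, and *msgn1* and *mespaa* in DN library 2. WT library 3 was the lowest for *tbx16*, *tbxta* and *msgn1*, but DN library 3 for *tbx6*, *aplnrb* and *mespaa*, and DN library 2 for *noto*. The part of the margin markers in the spread of *dlc* was not tested.

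**Figure D2:**
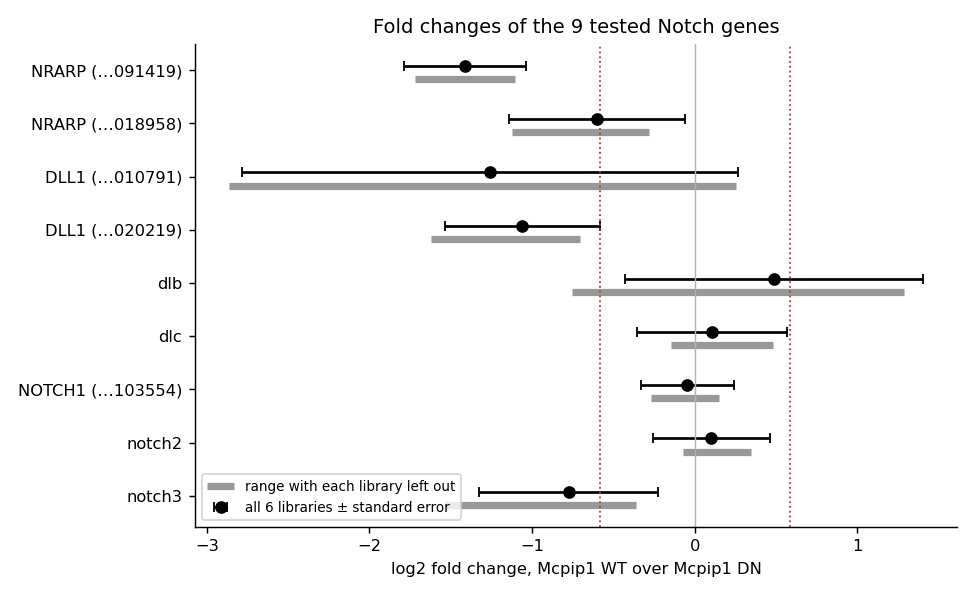
Log2 fold change, Mcpip1 WT over Mcpip1 DN (horizontal axis), of the 9 tested Notch genes. Points with bars give edgeR's estimate with its SE, grey bars the range over the 6 fits that each left out 1 library, and dotted lines a fold change of 1.5. The grey bar lies wholly beyond the dotted line for ENSDARG00000091419 (-1.72 to -1.10) and ENSDARG00000020219 (-1.62 to -0.70), and crosses 0 for ENSDARG00000010791, *dlb*, *dlc*, ENSDARG00000103554 and *notch2*.

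Of the 4 receptor identifiers, the 3 that passed the filter on low counts were not past the threshold with all 6 libraries. ENSDARG00000103554, a NOTCH1 gene, stood at 7452, 9504 and 5229 normalized counts in the Mcpip1 WT pools and at 8682, 8352 and 5857 in the Mcpip1 DN pools. The groups overlapped over nearly their whole range, with library 3 the lowest in both. Here the log2 fold change was -0.05 (SE 0.29, unadjusted p = 0.877 in edgeR), with a 95% interval of -0.67 to 0.58, and its sign changed with the library left out, from -0.27 to 0.15. *Notch2* stood at 373, 313 and 386 normalized counts in the Mcpip1 WT pools and at 303, 442 and 253 in the Mcpip1 DN pools. Its log2 fold change was 0.10 (SE 0.36, unadjusted p = 0.781 in edgeR), with a 95% interval of -0.69 to 0.89, and was -0.070 without DN library 3.

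*Notch3*, a receptor found in neural progenitors, stood at 287, 1134 and 446 normalized counts in the Mcpip1 WT pools and at 1157, 1611 and 426 in the Mcpip1 DN pools. WT library 2 was close to DN library 1, and DN library 3 was close to WT library 3. WT libraries 2 and 3 thus lay inside the range of the DN libraries, and DN library 3 inside that of the WT libraries. The log2 fold change was -0.77 (SE 0.55, unadjusted p = 0.188 in edgeR). In edgeR it was past the threshold without WT library 2 (-1.54, unadjusted p = 0.0135) and without DN library 3 (-1.15, unadjusted p = 0.049). It was not past it without WT library 1 (-0.43, unadjusted p = 0.48) or WT library 3 (-0.57, unadjusted p = 0.36). Nor was it without DN library 1 (-0.71, unadjusted p = 0.257) or DN library 2 (-0.36, unadjusted p = 0.567). With all 6 libraries and no filter on low counts it was past it in edgeR (-0.76, unadjusted p = 0.0289). In DESeq2 with no filter it was not (-0.77, unadjusted p = 0.162).

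ENSDARG00000052094, the other NOTCH1 identifier, was the only one of the 10 below the filter. It was counted 1, 0 and 1 times in Mcpip1 WT and 44, 15 and 1 times in Mcpip1 DN. DN libraries 1 and 2 stood above all others, and DN library 3 was at the level of the WT libraries. Summed over the group and scaled to library size, the WT to DN ratio of counts was 0.0297, with a 95% exact interval of 0.00351 to 0.112 that covers counting error only. Of the 60 DN counts, 16 remain without DN library 1. With no filter on low counts it was past the threshold of the study with all 6 libraries, at an unadjusted p of 0.021 in edgeR and 0.00409 in DESeq2, and the adjusted p was 0.96 in edgeR and 1.00 in DESeq2. The 0 of WT library 2 leaves room for up to 3 counts, and RNA below that limit was not detectable there.

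**Figure D3:**
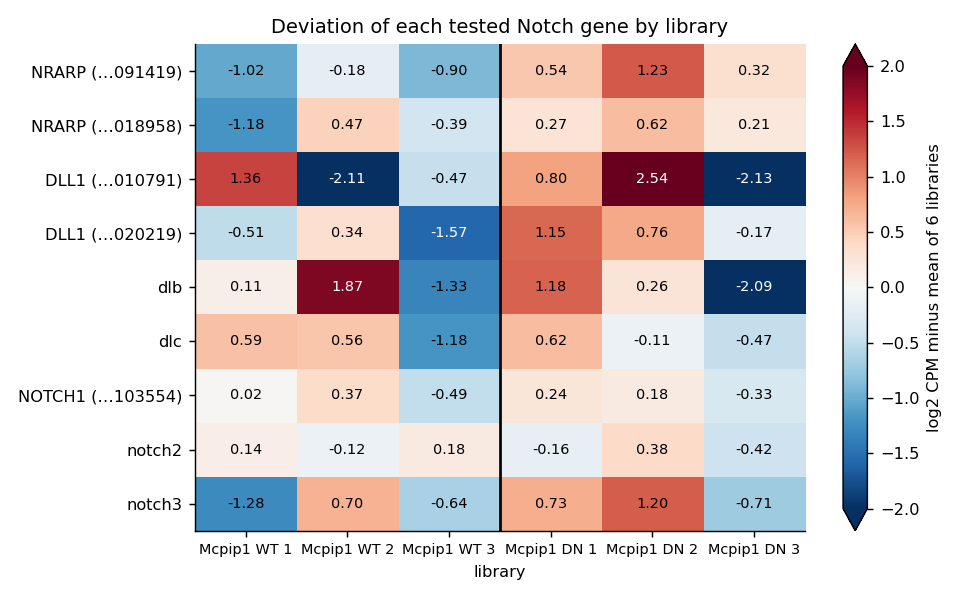
Deviation of each tested Notch gene in each library from its mean over the 6 libraries, in log2 CPM (gene counts relative to library size, prior count 2). Rows are genes, columns are libraries with Mcpip1 WT left of the black line and Mcpip1 DN right of it, and colours run from -2 (blue) to 2 (red). WT library 3 and DN library 3 are mostly blue, and DN libraries 1 and 2 mostly red.

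Across the set, pools of the same group lay far apart. DN library 2 was the highest library for 5 of the 9 tested genes, WT library 2 and DN library 1 for 2 each, and no gene was highest in WT library 1, WT library 3 or DN library 3. These last 3 libraries were each the lowest for 3 genes. The mean deviation over the 9 genes was -0.20, 0.21 and -0.75 log2 CPM in Mcpip1 WT libraries 1, 2 and 3, and 0.60, 0.78 and -0.64 in Mcpip1 DN libraries 1, 2 and 3. By this mean DN library 3 was close to WT library 3 and below WT library 1, but genes with few counts weigh in it. ENSDARG00000010791 deviated by -2.13 in DN library 3 and by 1.36 in WT library 1, and *dlb* by -2.09 and 0.11. Both NRARP identifiers, ENSDARG00000020219 and *notch3* were lower in WT library 1 than in DN library 3, and the other tested genes were higher.

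Between the 9 genes, 36 correlations of log2 CPM over the 6 libraries were computed, and 31 of them were positive. The highest was that of *dlb* with ENSDARG00000103554 of NOTCH1 (Pearson's r = 0.93, exact permutation p = 0.0111, and Spearman's rho = 0.94, exact permutation p = 0.0167). Its r was 0.95 without the 2 libraries farthest from the median of *dlb*. *Dlc* and ENSDARG00000103554 had r = 0.87 (exact permutation p = 0.0194) and rho = 0.71 (exact permutation p = 0.136), but r was 0.063 without the 2 libraries farthest from the median of *dlc*, so this relation rests on those libraries. The DLL1 identifier ENSDARG00000020219 and ENSDARG00000103554 had r = 0.82 (exact permutation p = 0.0431) and rho = 0.77 (exact permutation p = 0.103), with r = 0.58 in the same check on ENSDARG00000020219. The NRARP identifier ENSDARG00000018958 and *notch3* had r = 0.85 (exact permutation p = 0.00556) and rho = 0.89 (exact permutation p = 0.0333), with r = 0.79 in the same check on ENSDARG00000018958. The 2 NRARP identifiers had r = 0.83 (exact permutation p = 0.0292) and rho = 0.83 (exact permutation p = 0.0583), with r = 0.72 in that check. After Benjamini-Hochberg adjustment over the 36 pairs the smallest p was 0.20 for r and 0.42 for rho, so no pair passed. With 3 libraries a group, r within a group was not computed, and the libraries of both groups are pooled in these values.

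Among the other genes tested, those most like ENSDARG00000091419 over the 6 libraries were si:dkey-197c15.6 (r = 0.991), TEN1 (r = 0.989) and GCNT4 (r = 0.983), and 18 of 16125 genes had an r over 0.95 with it. Most like ENSDARG00000018958 were *rbm4.1* (r = 0.996), EIF4G2 (r = 0.992) and HOXD9 (r = 0.99), with 66 genes over 0.95. An r takes no account of the size of a change. Log2 fold changes were -0.33 for si:dkey-197c15.6, -0.65 for TEN1 and -1.07 for GCNT4, against -1.41 for ENSDARG00000091419. They were -0.29 for *rbm4.1*, -0.26 for EIF4G2 and -1.15 for HOXD9, against -0.60 for ENSDARG00000018958. With 6 libraries and this many genes, the values of r are a description of these libraries.

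Other genes of the pathway were taken from a list of 77 symbols, of which 64 identifiers could be matched by name and 47 were tested. Of these, 1 was past the threshold and lower in Mcpip1 WT and 0 were higher, against 1.27% and 0.874% of all genes. The median log2 fold change of the 47 genes was -0.13, with 34 below 0, against 0.01 over all genes tested. In 4 of the 47 the WT libraries lay wholly below the DN libraries (*lfng*, *jag1a*, *ncor1* and the ADAM17 identifier ENSDARG00000043213). In 1, *itcha*, they lay wholly above. Over all genes tested these shares were 4.08% and 3.97%.

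The gene past the threshold was *lfng* (ENSDARG00000037879), which encodes the Lunatic fringe glycosyltransferase that extends sugars on Notch receptors and so alters their response to delta and jagged ligands. Its transcript stood at 157, 466 and 252 normalized counts in the Mcpip1 WT pools and at 994, 813 and 601 in the Mcpip1 DN pools. The means were 292 ± 158 in Mcpip1 WT and 803 ± 197 in Mcpip1 DN (SD, n = 3 each). All 3 WT libraries were below all 3 DN libraries, with WT library 1 the lowest, as for both NRARP identifiers. The log2 value for *lfng* was -1.46 (SE 0.43, unadjusted p = 0.00556 and adjusted p = 1.00 in edgeR). Leaving out a library moved this value between -1.97 and -1.16, and *lfng* was past the threshold in all 6 such fits.

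Markers of other parts of the embryo were summed beside these values. The 9 neuroectoderm markers summed to 12112, 26119 and 10637 normalized counts in Mcpip1 WT libraries 1, 2 and 3 and to 32191, 19950.5 and 21749 in Mcpip1 DN libraries 1, 2 and 3. In 8 of the 9 the log2 fold change was below 0, with a median of -0.81. With all 6 libraries in edgeR, 0 of the 9 were past the threshold. *Sox19a* (-0.83, unadjusted p = 0.0549 in edgeR) had an unadjusted p of 0.0477 in DESeq2 with no filter on low counts. Past the threshold in 1 of the 6 fits with a library left out were *sox3*, *sox19a*, *sox2*, *otx2a*, *neurog1*, *otx2b* and, above 0, *cyp26a1*. In those fits *sox2* ran from -1.50 to 0.02, *otx2a* from -0.97 to -0.02 and *cyp26a1* from 0.03 to 1.09. *Sox3* stayed at or below -0.51, *sox19a* at or below -0.57, and *neurog1* and *otx2b* below -1. Over all genes, those past the threshold and lower numbered 75 to 512 in such fits, against 204 with all 6 libraries. *Zic1* had a count of 0 in at least 1 library and its groups overlapped. *Neurog1* was counted 0, 0 and 9 times in Mcpip1 WT and 14, 18 and 26 times in Mcpip1 DN. Its groups did not overlap (log2 fold change -2.94, SE 1.69, unadjusted p = 0.109 in edgeR). WT libraries 1 and 3 were the lowest in the neuroectoderm sum, as they were in both NRARP identifiers and *lfng*. Of the 12 maternal markers 10 had a log2 fold change above 0 and 0 were past the threshold, with sums of 46541 to 81750 in Mcpip1 WT and 38572 to 52926 in Mcpip1 DN. For the maternal marker *h1m* all WT libraries lay above all DN libraries (0.48, unadjusted p = 0.111 in edgeR). The 11 markers of the enveloping layer, the outer epithelium, summed to 147435 to 276837 in Mcpip1 WT and to 204505 to 326669 in Mcpip1 DN, and all had counts in every library. In 9 of the 11 the log2 fold change was below 0. Of these, 1, the periplakin gene *ppl*, was past the threshold at -0.75 (unadjusted p = 0.0328 in edgeR), with all 3 WT libraries below all 3 DN libraries. Leaving out a library moved this value between -0.98 and -0.51, and *ppl* was past the threshold in 2 of these 6 fits. Among all genes tested, 1.27% were past the threshold and lower in Mcpip1 WT. The WT libraries were wholly below the DN libraries in 4.08% of all genes and wholly above in 3.97%. The markers of the yolk syncytial layer, 6 in number, summed to 6874 to 17869 in Mcpip1 WT and to 9586 to 16728 in Mcpip1 DN. Of these, *apobb.1* was at 0 in at least 1 library. The part of these cell types or of a difference in stage in the values of NRARP, DLL1 and *lfng* was not tested.

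**Figure D4:**
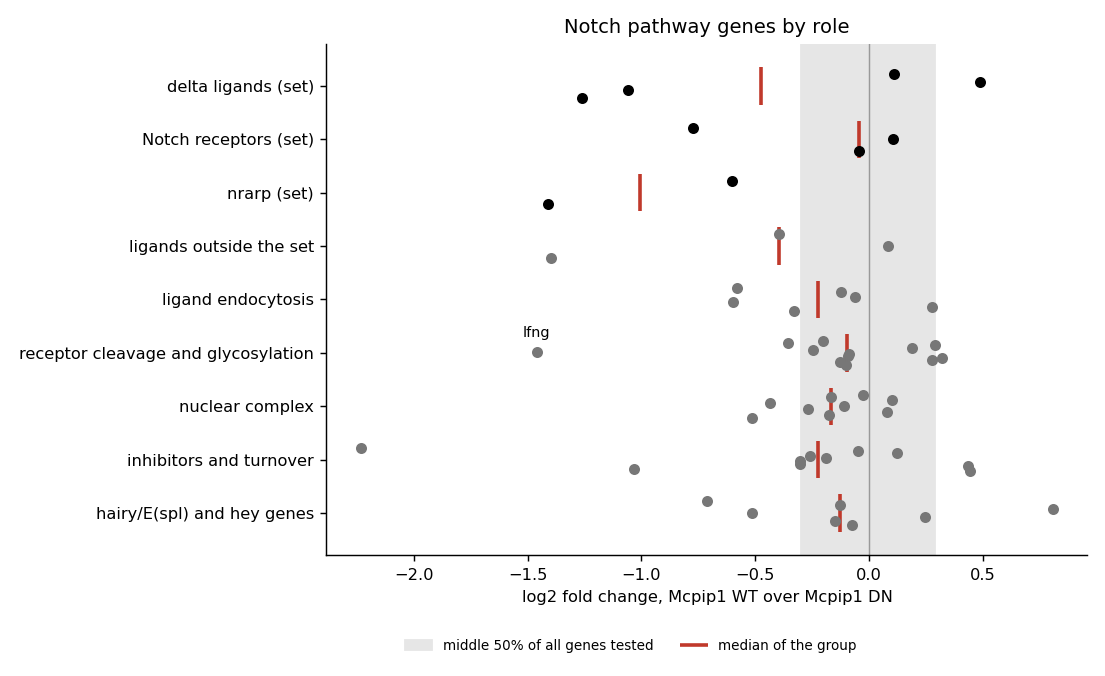
Log2 fold change, Mcpip1 WT over Mcpip1 DN (horizontal axis), of the 9 tested Notch genes of the set (black) and 47 other pathway genes (grey), by role. Red lines are group medians and the grey band the middle 50% of all 16126 genes tested. The points of the nuclear complex lie between -0.51 and 0.10, and *lfng*, at -1.46, is the only grey point past the threshold.

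Few ligands outside the set were above the filter on low counts. Of 6 matched, *jag1a*, *jag2b* and the atypical ligand *dner* were tested and 0 passed. *Jag1a* was counted 1, 75 and 71 times in Mcpip1 WT and 88, 100 and 149 times in Mcpip1 DN, and its fold change was -1.40 on the log2 scale (SE 0.97, unadjusted p = 0.18 in edgeR). The WT libraries of *jag1a* did not reach the DN libraries after scaling, as for 4.08% of all genes tested. Leaving out a library moved the value between -1.99 and -0.82.

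Genes for ligand endocytosis, which delta ligands need to signal, had a median log2 fold change of -0.23 over 6 tested, with 0 past the threshold. The smallest p values were those of the epsin *epn2* (log2 fold change -0.58, unadjusted p = 0.0773 in edgeR), of *neurl1ab* (-0.60, unadjusted p = 0.163) and of the ubiquitin ligase *mib1* (-0.33, unadjusted p = 0.391). *Epn2* and *neurl1ab* were past the threshold without WT library 2, with log2 fold changes of -0.95 for *epn2* and -0.98 for *neurl1ab*, and *neurl1ab* was also past it without DN library 2 (-0.93).

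Besides *lfng*, the genes for receptor cleavage and glycosylation had 0 of 11 past the threshold. The median of the 12 genes was -0.10. These include the sheddase identifier ENSDARG00000043213 of ADAM17 (-0.36, unadjusted p = 0.196 in edgeR) and the γ-secretase subunit *psen2* (0.32, unadjusted p = 0.328). The fringe *rfng* had a log2 fold change of -0.25 (unadjusted p = 0.519), and *mfng* was below the filter.

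In the nuclear complex, 9 genes were tested, and their log2 fold changes ran from -0.51 to 0.10 with a median of -0.17. The coactivator *maml1* was at -0.51 (unadjusted p = 0.128 in edgeR), the corepressor *ncor1* at -0.27 (unadjusted p = 0.248), and the identifiers of RBPJ at -0.44 (ENSDARG00000003398, unadjusted p = 0.162) and 0.10 (ENSDARG00000052091, unadjusted p = 0.852). Without WT library 3, ENSDARG00000003398 was past the threshold at -0.73. Inhibitors and turnover genes had a median of -0.23 over 10 tested and 0 past the threshold. *Numb*, an endocytic inhibitor of Notch, was at 0.44 (unadjusted p = 0.233), and the ubiquitin ligase gene *itcha* at 0.43 (unadjusted p = 0.241). The identifier of NEDD4 was at -2.23 with a SE of 1.78. It was counted 0, 14 and 5 times in Mcpip1 WT and 0, 15 and 75 times in Mcpip1 DN. Leaving out a library moved its value between -3.71 and -0.17.

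The hairy/E(spl) and hey genes, among which are the classical targets of the Notch signal, gave 7 tested genes of 19 matched. The median over the 7 was -0.13 on the log2 scale, and 0 passed. *Her11* was the highest of the list, at 663, 911 and 566 normalized counts in the Mcpip1 WT pools and 639, 302 and 285 in the Mcpip1 DN pools, or 0.81 on the log2 scale (SE 0.39, unadjusted p = 0.0649 in edgeR). WT library 3 lay below DN library 1, so the groups overlapped. *Her11* was past the threshold without DN library 1, with a log2 fold change of 1.28. The clock genes *her1* and *her7* were at -0.08 (unadjusted p = 0.883) and 0.24 (unadjusted p = 0.6), *her8a* at -0.51 (unadjusted p = 0.416), and *hey2* at -0.71 (unadjusted p = 0.544). *Her8a* was past the threshold without WT library 2 (-1.72), and *hey2* was past it without WT library 3 (-3.33). With other libraries left out *her8a* came as close to 0 as -0.10, and *hey2* reached 0.08. *Hey2* was counted 14, 2 and 162 times in Mcpip1 WT and 34, 51 and 156 times in Mcpip1 DN. Its WT counts thus lay mostly in WT library 3. Of the 17 untested genes of the list, 5 had no count in any library (*her4.2*, *her4.3*, *her4.4*, *her15.2* and *heyl*), which allows up to 3 counts each, and the highest count of the others in a library was 28. The her4 and her15 genes are near-identical copies, whose reads the counting can discard as not unique, so their zeros are uncertain.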

How the data were processed

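The deposited files hold the authors' unnormalized read counts by Ensembl gene for 6 libraries, 3 of Mcpip1 WT and 3 of Mcpip1 DN. Per the labels and the study's methods, reads were mapped to GRCz11 with STAR 2.7.10a, reads left unmapped with Bowtie2 2.4.4, and counted with HTSeq. The strand setting and HTSeq version are not given in the sources used here, so paralogs and overlapping or antisense genes are uncertain. The 5 closing rows of reads without a gene, 16.5% to 26.1% of all counts, were left out.

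R 4.3.3 was used, with edgeR 4.0.16 (filterByExpr, minimum count 10, TMM, glmQLFit and glmQLFTest, no covariates, Benjamini-Hochberg adjustment over 16126 genes) and, as an alternative, DESeq2 1.42.0. Standard errors (SE) are the log2 fold change over the root of F. The 95% intervals of fold changes use these and the total degrees of freedom of the test, residual plus prior (median over all genes, 11.1). Log2 CPM used a prior count of 2. Alternatives were other size factors, TMM without *zc3h12a*, no filter, a block by replicate number, and fits without each library. The fits were tested on simulated data. Groups and replicate numbers came from the labels. Of the 32057 identifiers 28988 had a name, and a list symbol without an exact match took the identifier under its bare name. The genes and lists were chosen with earlier results of these data known. Named are the 10 genes, *zc3h12a*, pathway genes past the threshold, up to 3 with the smallest p per role, and the 3 genes most like each NRARP identifier. *Rfng*, *her1*, *her7*, *mfng*, the identifier ENSDARG00000052091, the her4 and her15 genes, *heyl*, *ppl*, *h1m* and the markers at 0 were named after their values were seen. So were the single markers of the mesoderm margin and the neuroectoderm. No sequences or gene lengths were used.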

Additional observations from a re-analysis of the deposited data

How the results depend on the processing

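The genes past the threshold numbered 141 higher and 204 lower in Mcpip1 WT, and 296 and 328 with DESeq2, or 336 and 432 with edgeR, when every gene counted once or more was kept. With each library left out they ranged from 69 to 291 higher and from 75 to 512 lower, both lowest without WT library 1. The higher genes also numbered 291 without WT library 3 and 225 without DN library 1, and the lower genes 512 without WT library 2 and 421 without WT library 3. The number of Notch genes past it, 2 of 9, ranged from 1 to 3 in those fits, with ENSDARG00000091419 in each. The number of other pathway genes past it, 1 of 47, ranged from 1 to 4, with *lfng* in each. It was 4 without WT library 2, 3 without WT library 3 and 2 without DN library 1 or DN library 2. It was 2 without a filter and 2 with the replicate block, *her11* being added both times. With a library left out, the log2 fold changes that changed sign were those of ENSDARG00000010791 (-2.86 to 0.25), *dlb* (-0.76 to 1.29), *dlc* (-0.14 to 0.48), ENSDARG00000103554 (-0.27 to 0.15) and *notch2* (-0.070 to 0.34). The difference between the NRARP identifiers stayed between -0.91 and -0.51. With the replicate block *dlc* was at -0.020, and 144 genes were higher and 288 lower. The deviations of same-numbered libraries had r = 0.01, -0.08 and 0.30 for numbers 1, 2 and 3. Between libraries of unlike number r ran from -0.36 to 0.29, so the value for number 3 was the highest. Whether the numbers mark pairs was not tested, and the main fit did not take them as pairs. DESeq2's size factors and TMM without *zc3h12a* changed no call of the Notch genes. Counts under 100 in DLL1 identifier ENSDARG00000010791 and in ENSDARG00000052094 limit what these libraries can show.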
